A study of Ciona robusta with 6 samples.

Results

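The 5 genes described here are named after parts of the machinery that releases synaptic vesicles and senses calcium in nerve endings. They are *Syt7-rel* (KH2013:KH.C4.304), *Cplx2* (KH2013:KH.C8.717), *VAMP1/2/3* (KH2013:KH.C1.165), *Bassoon-like* (KH2013:KH.C5.481) and *Ncs* (KH2013:KH.C1.1067), picked by gene ID from the 15232 gene models of the deposited count table. All 5 were among the 12253 gene models that passed the filter on low values, more than 1 CPM (the count scaled to the library total) in 2 or more libraries, and were tested.

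Embryos of *Ciona robusta*, a tunicate, were electroporated with plasmids and raised to 9.5 hours post-fertilization (hpf) at 20°C. Cells of the bipolar tail neuron (BTN) lineage, marked by a blue or red fluorescent protein under the *Neurog[BTN]* driver, were then sorted without counterselection. In *Neurog* > *Neurog*, the lineage overexpressed Neurogenin, a transcription factor that turns on neuronal fate. In *Neurog* > *Neurog:WRPW*, it expressed Neurogenin fused to the WRPW motif, which recruits a corepressor and makes the protein a dominant repressor. In the control, *Neurog* > *lacZ*, it expressed a bacterial enzyme. Each condition had 2 biologically independent libraries, and all carried the *Neurog[BTN]* driver and a fluorescent reporter. The driver of the Neurog and Neurog:WRPW plasmids is listed with an inserted stop codon, and that of the lacZ plasmid without it. The driver marks the whole lineage, of which only some cells become BTNs in the control. The rest start out broadly as epidermis, and the study states that epidermal sensory neurons are specified later. The study warns that the driver might also be active in other tissues, with false positives among its genes as a result. In sorted pools such as these, fewer neurons and less RNA per neuron cannot be told apart.

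In a resting nerve terminal, vesicles wait at the active zone, a patch of membrane organized by very large scaffold proteins such as Bassoon. The vesicle protein VAMP (synaptobrevin) zips together with syntaxin and SNAP-25 into the SNARE complex, and complexin binds that complex and helps to hold it until calcium enters. Synaptotagmins bind calcium through their C2 domains and trigger fusion, and mammalian synaptotagmin 7 is known as a slow sensor of high affinity. Neuronal calcium sensor 1, called frequenin in flies, is a small EF-hand protein that tunes transmitter release. These roles are known from vertebrates, flies and worms.

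The study's probe templates for *in situ* hybridization give the transcribed sequence of *Ncs*, *Cplx2* and *Syt7-rel*, and stretches of them are printed here to show what the counted genes encode. Each has 1 reading frame that runs without a stop for 132 or 133 codons of the 399 bases at hand, on the strand printed. In *Ncs* the capitals mark 3 stretches of 12 codons that match the calcium-binding loop of an EF hand, with aspartate first, glycine sixth and glutamate last. In *Cplx2* the capitals mark the first start codon of that frame. In *Syt7-rel* no part is marked. *VAMP1/2/3* and *Bassoon-like* are named only.
Ncs: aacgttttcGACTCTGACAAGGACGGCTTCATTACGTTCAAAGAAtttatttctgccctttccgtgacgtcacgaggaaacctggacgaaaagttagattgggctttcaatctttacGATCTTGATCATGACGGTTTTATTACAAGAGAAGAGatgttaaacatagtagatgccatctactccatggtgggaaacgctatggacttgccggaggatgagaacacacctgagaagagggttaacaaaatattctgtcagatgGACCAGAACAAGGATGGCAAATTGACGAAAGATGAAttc
Cplx2: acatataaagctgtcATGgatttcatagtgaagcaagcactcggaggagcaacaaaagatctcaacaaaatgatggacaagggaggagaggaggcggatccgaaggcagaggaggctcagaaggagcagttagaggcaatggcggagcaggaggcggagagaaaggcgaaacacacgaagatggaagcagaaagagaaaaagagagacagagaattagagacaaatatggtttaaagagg
Syt7-rel: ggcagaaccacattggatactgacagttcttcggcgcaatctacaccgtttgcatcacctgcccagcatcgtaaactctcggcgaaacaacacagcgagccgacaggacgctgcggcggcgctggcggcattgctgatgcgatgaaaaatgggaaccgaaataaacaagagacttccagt

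The libraries held 10315548 to 24499397 counts and 13009 to 14497 gene models with at least 1 count, both lowest in Neurog:WRPW replicate 2, the library from the fewest sorted cells. *Neurog* itself (KH.C6.129) was at 3934 and 3975 CPM under Neurog, 109.0 and 190.3 CPM under Neurog:WRPW and 90.1 and 134 CPM under lacZ. These counts do not separate plasmid from chromosomal transcripts. Between Neurog:WRPW and lacZ the gene did not pass the thresholds (LogFC 0.42, standard error 0.35), so its count is no check of the Neurog:WRPW label. Of the other markers of the lineage, *Asic* (KH.C1.215), an ion channel gene, was at 450.5 and 189.9 CPM under Neurog, 14.6 and 1.33 CPM under Neurog:WRPW and 73.6 and 44.8 CPM under lacZ. *Onecut* (KH.C6.185), which encodes a transcription factor, was at 378.7 and 354.5 CPM under Neurog, 37.4 and 16.8 CPM under Neurog:WRPW and 110.7 and 62.5 CPM under lacZ. Both markers were thus highest in the Neurog libraries and lowest in the Neurog:WRPW libraries, and the part of the number of neurons sorted in the results below was not tested.

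All 5 genes were upregulated by Neurog. The LogFC, on the log2 scale, ranged from 1.31 for *VAMP1/2/3* to 3.08 for *Ncs*, with a median of 2.758, against a median of -0.03 over all genes tested. The call asks for a LogFC over 0.6 and an unadjusted p under 0.05, the thresholds the study used. Of all genes tested, 4.36% met it, and the 5 genes were chosen with earlier results of these data known. Under Neurog:WRPW, 2 of the 5 genes, *Ncs* and *Syt7-rel*, were downregulated at a LogFC under -0.6 and the same p, which 1.19% of all genes tested met.

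**Figure D1:**
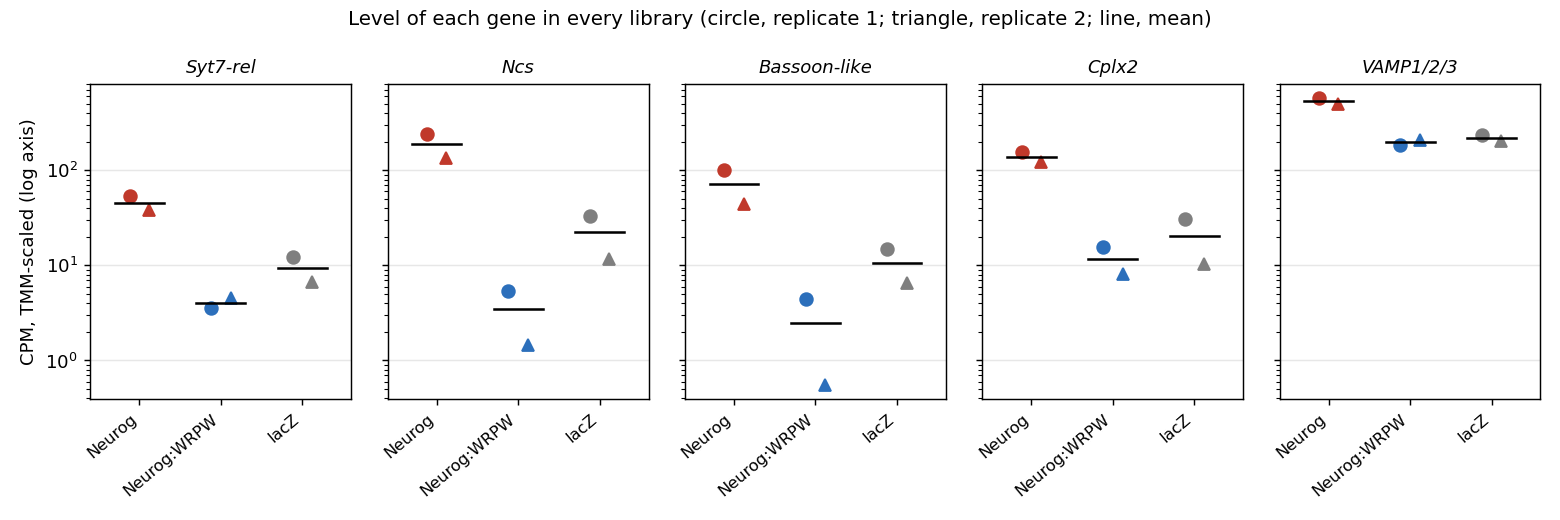
Level of the 5 genes in CPM on a log axis, with 1 panel per gene. Circles are replicate 1, triangles replicate 2 and lines the mean of the 2 libraries. Both Neurog libraries lie above both lacZ libraries in every panel, and the Neurog:WRPW and lacZ libraries overlap in the *VAMP1/2/3* and *Cplx2* panels.

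*Ncs*, the EF-hand calcium sensor, had 241 and 134 CPM under Neurog, 5.44 and 1.45 CPM under Neurog:WRPW and 33.0 and 11.6 CPM under lacZ. None of these ranges overlap. It rose 8.43-fold in Neurog vs. lacZ (LogFC 3.08, standard error 0.74, adjusted p = 0.465, Benjamini-Hochberg, in the edgeR quasi-likelihood fit). In Neurog:WRPW vs. lacZ it fell to 0.161 of the control level (LogFC -2.63, standard error 0.75, adjusted p = 1.00 in the same fit). Only 0.506% of the genes tested had a higher LogFC in Neurog, and 99.6% had a higher one in Neurog:WRPW. The lower Neurog:WRPW library rests on 13 reads, with an exact Poisson 95% interval of 6.92 to 22.2 that covers counting error only.

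*Syt7-rel* is named by the study after a synaptotagmin, and calcium binding by its protein was not tested. It had 53.3 and 38.1 CPM under Neurog, 3.54 and 4.56 CPM under Neurog:WRPW and 12.2 and 6.67 CPM under lacZ. Here too the libraries of the 3 conditions did not overlap. It rose 4.85-fold in Neurog (LogFC 2.28, standard error 0.40, adjusted p = 0.279 in edgeR). In Neurog:WRPW it fell to 0.428 of the lacZ level (LogFC -1.23, standard error 0.40, adjusted p = 1.00 in edgeR). The 2 lacZ libraries differed 1.82-fold.

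*Bassoon-like*, named after the active zone scaffold, had 100.4 and 44.5 CPM under Neurog, 4.44 and 0.556 CPM under Neurog:WRPW and 14.9 and 6.54 CPM under lacZ. It rose 6.77-fold in Neurog (LogFC 2.759, standard error 0.86, adjusted p = 0.581 in edgeR). Its LogFC of -2.005 in Neurog:WRPW (standard error 0.87, 95% interval -4.11 to 0.10) lay further below 0 than that of *Syt7-rel*. It missed the threshold here, at an unadjusted p of 0.0591 in the edgeR quasi-likelihood fit. The study, whose edgeR test is not named, lists this gene among those that passed in both directions. The Neurog:WRPW libraries stood 7.98-fold apart, the widest gap between replicates of any of the 5 genes, and the lower one holds 5 reads (exact Poisson 95% interval 1.62 to 11.7). Both nevertheless lay below both lacZ libraries. By edgeR's exact test and by DESeq2 the fall passed the thresholds, at unadjusted p of 0.0237 and 0.0161, with an adjusted p of 1.00 by both tools.

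*Cplx2*, the complexin that binds the assembled SNARE complex, had 155 and 121 CPM under Neurog, 15.5 and 8.12 CPM under Neurog:WRPW and 30.5 and 10.4 CPM under lacZ. It rose 6.76-fold in Neurog (LogFC 2.758, standard error 0.58, adjusted p = 0.402 in edgeR). Between Neurog:WRPW and lacZ the libraries overlapped, with a LogFC of -0.78 (standard error 0.56, 95% interval -2.12 to 0.56). Without lacZ replicate 1 that value was 0.20, and without lacZ replicate 2 it was -1.36 and passed the thresholds (unadjusted p = 0.0298 in edgeR). The 2 lacZ libraries differed 2.92-fold, and with 1 of them left out the sign depended on which was kept. At each replicate number the Neurog:WRPW library lay below the lacZ library. With the replicate number as a block the LogFC was -0.705 (standard error 0.308, unadjusted p = 0.0588 in edgeR), not past the thresholds.

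*VAMP1/2/3*, the vesicle SNARE, had 577 and 500.2 CPM under Neurog, 183 and 211 CPM under Neurog:WRPW and 233 and 202 CPM under lacZ. Replicates agreed closely, with 1.15-fold between the libraries of each condition. It rose 2.48-fold in Neurog (LogFC 1.31, standard error 0.24, adjusted p = 0.303 in edgeR). In Neurog:WRPW the LogFC was -0.14 (standard error 0.23), and its 95% interval of -0.71 to 0.42 leaves out a fall as large as the estimates for *Ncs* and *Syt7-rel*. A change of *VAMP1/2/3* within that interval, in either direction, cannot be told from none with these libraries. Its interval overlaps that of *Syt7-rel* (-2.19 to -0.26), and differences between the genes were not tested.

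**Figure D2:**
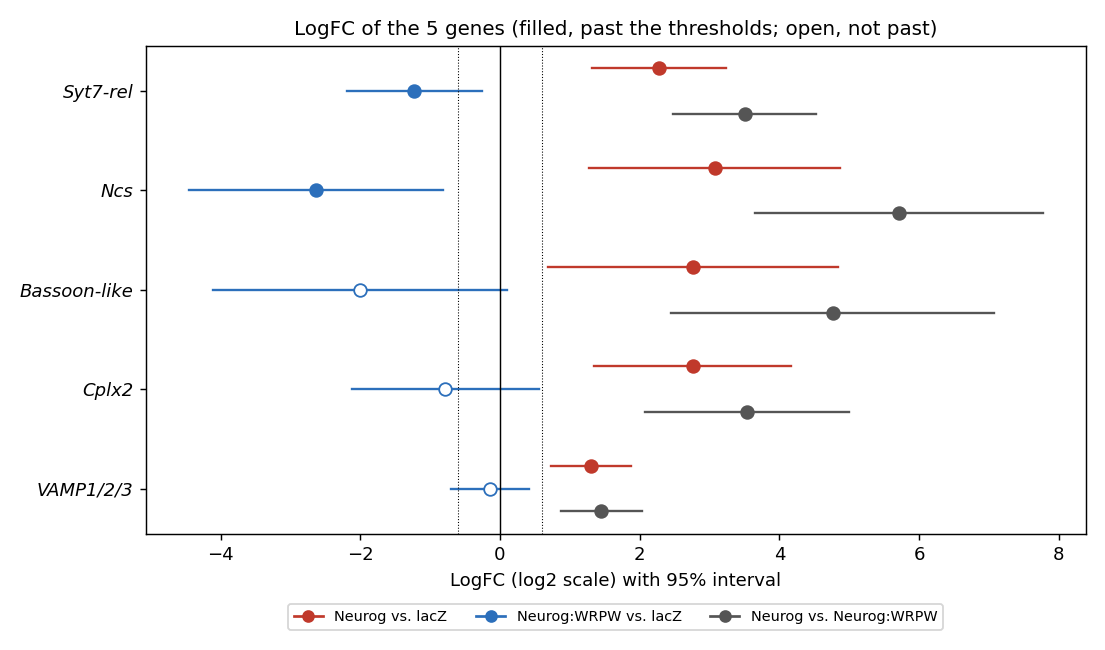
LogFC of each gene on the log2 scale in the 3 comparisons, with its 95% interval. Filled points passed the thresholds and dotted lines stand at -0.6 and 0.6. In Neurog:WRPW vs. lacZ the values run from -2.63 for *Ncs* to -0.14 for *VAMP1/2/3*, and 2 of 5 are filled.

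At an adjusted p of 0.05, 0 of the 5 passed against lacZ in the edgeR quasi-likelihood fit, as did 0 of 12253 genes in Neurog and 0 in Neurog:WRPW. At an unadjusted p under 0.05, 5 of the 5 passed in Neurog, with 771 of all genes (6.29%), and 2 of the 5 in Neurog:WRPW, with 191 of all genes (1.56%). Other tools passed more at the adjusted p, with 157 genes in Neurog and 2 in Neurog:WRPW by edgeR's exact test, and 220 and 4 by DESeq2. By that exact test, 4 of the 5 rose at an adjusted p under 0.05 (0.000762 for *Syt7-rel*, 0.00299 for *Cplx2*, 0.0136 for *Ncs* and 0.0218 for *VAMP1/2/3*), and by DESeq2 the same 4 did, at 0.000242 to 0.0018. *Bassoon-like* stayed at 0.147 and 0.0516 by these tools. For Neurog:WRPW vs. lacZ, 0 of the 5 passed by any of the 3 tools. With 2 libraries against 2, an exact permutation test cannot go below p = 0.333.

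Compared directly, the Neurog libraries were higher than the Neurog:WRPW libraries for all 5 genes at the thresholds, which 7.08% of all genes tested met in that direction. *Ncs* was 52.4-fold higher (LogFC 5.71, standard error 0.85), and only 0.147% of genes tested had a larger LogFC. *Bassoon-like* was 27.2-fold higher (LogFC 4.76, standard error 0.96), *Cplx2* 11.6-fold (LogFC 3.54, standard error 0.60) and *Syt7-rel* 11.4-fold (LogFC 3.50, standard error 0.42). *VAMP1/2/3* was 2.735-fold higher (LogFC 1.45, standard error 0.24). The adjusted p in edgeR lay between 0.0725 and 0.148, so 0 of the 5 passed 0.05, while all 5 did by the exact test and by DESeq2. Of all genes tested, 0.0408% passed that adjusted p in the quasi-likelihood fit. All 5 kept this call when any 1 library was left out, with LogFCs of 5.11 to 7.01 for *Ncs* and 1.35 to 1.56 for *VAMP1/2/3*.

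The order of single libraries was read without a test. For all 5 genes both Neurog libraries lay above both Neurog:WRPW libraries, as for 20.8% of all genes tested, and above both lacZ libraries, as for 18.6%. Both Neurog:WRPW libraries lay below both lacZ libraries for *Ncs*, *Syt7-rel* and *Bassoon-like*, as for 13.7% of genes, and those of *Cplx2* and *VAMP1/2/3* overlapped lacZ. Thus 3 of 5 genes held the order of Neurog, then lacZ, then Neurog:WRPW in every library, which 3.97% of all genes did.

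Whether both perturbations moved a gene by unequal amounts was tested as the sum of its LogFCs against lacZ, which is 0 where the control lies midway. *VAMP1/2/3* had a sum of 1.164 (standard error 0.41, unadjusted p = 0.0289 and adjusted p = 1.00 in edgeR), so the rise in Neurog was the larger shift. Of all genes tested, 0.637% had a sum above 0 at an unadjusted p under 0.05, and 0 passed an adjusted p of 0.05 in edgeR. That call was lost without either lacZ library, without Neurog replicate 1 or Neurog:WRPW replicate 2, with sums of 0.965 to 1.42. *Cplx2* had a sum of 1.98 (standard error 0.99), *Syt7-rel* 1.05 (standard error 0.68), *Bassoon-like* 0.75 (standard error 1.45) and *Ncs* 0.44 (standard error 1.23), none past the test. Without lacZ replicate 1, *Cplx2* (3.95, standard error 0.99) and *Syt7-rel* (2.08, standard error 0.80) passed an unadjusted p of 0.05. The 95% intervals of *Bassoon-like* and *Ncs*, -2.76 to 4.27 and -2.53 to 3.41, are too wide to tell equal from unequal shifts.

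**Figure D3:**
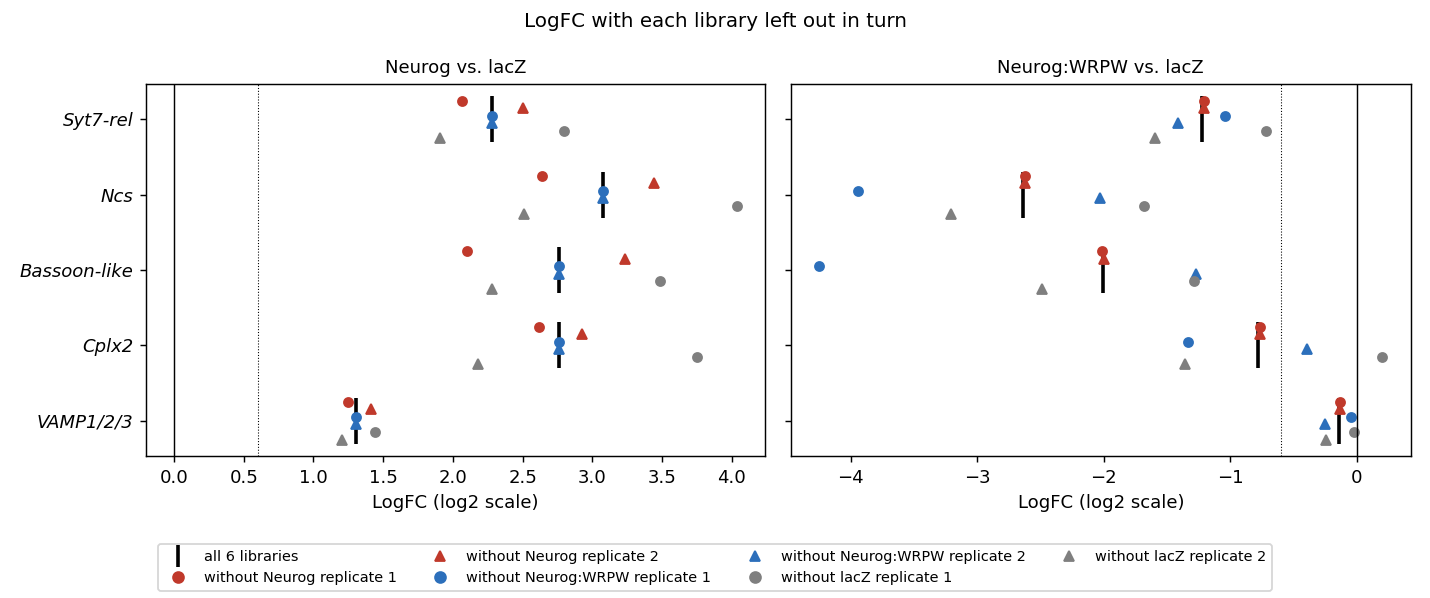
LogFC of each gene with all 6 libraries (black bar) and with 1 library left out (points, coloured by the condition of the library left out). In Neurog vs. lacZ every point lies right of the dotted line at 0.6. In Neurog:WRPW vs. lacZ the values without lacZ replicate 1 (grey circles) lie nearer to 0 for all 5 genes, and that of *Cplx2* is above 0.

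Leaving out single libraries ended 1 of the 5 rises and both falls. The LogFC in Neurog stayed past the thresholds for *Ncs*, *Syt7-rel*, *Cplx2* and *VAMP1/2/3* whichever library was left out, with lowest values of 1.91, 2.18 and 1.208 for the last 3 of these. The rise of *Bassoon-like* lost the call without Neurog replicate 1 (LogFC 2.104, standard error 1.00) and without lacZ replicate 2 (LogFC 2.28, standard error 1.12). In Neurog:WRPW, 2 of 5 genes fell with all libraries, but 0 did without lacZ replicate 1, where *Ncs* was at -1.68 (standard error 0.73) and *Syt7-rel* at -0.71 (standard error 0.41). The fall of *Syt7-rel* also lost the call without Neurog:WRPW replicate 1 (LogFC -1.04). *Bassoon-like* was at -4.25 and passed without Neurog:WRPW replicate 1, and at -1.27 without Neurog:WRPW replicate 2. Leaving a condition with 1 library assumes that this library varies like the others.

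Replicate 1 was higher than replicate 2 in every condition for *Ncs*, *Bassoon-like* and *Cplx2*, which holds for 26.2% of all genes tested. For *Ncs* the ratio of replicate 1 to replicate 2 was 1.80 in Neurog, 3.76 in Neurog:WRPW and 2.85 in lacZ, and for *Bassoon-like* it was 2.26, 7.98 and 2.28. *Syt7-rel* and *VAMP1/2/3* were lower in replicate 1 of Neurog:WRPW, at ratios of 0.776 and 0.867. *Asic* and *Onecut* were likewise higher in replicate 1 of each condition. More cells were sorted for replicate 1 of Neurog:WRPW and lacZ and fewer for replicate 1 of Neurog, and the part of cell numbers in these ratios was not tested.

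Divided by the length of the counted exons (1030 to 2293 bases), levels can be set beside each other between genes. In all Neurog and lacZ libraries the order was *VAMP1/2/3*, *Ncs*, *Cplx2*, *Bassoon-like* and *Syt7-rel*. *VAMP1/2/3* stood at 376 ± 37.8 CPM per kilobase (SD, n = 2) in Neurog, 137 ± 13.8 in Neurog:WRPW and 152 ± 15.3 in lacZ. *Ncs* was at 182 ± 73.6, 3.34 ± 2.74 and 21.6 ± 14.7 CPM per kilobase in the same order of conditions, and *Cplx2* at 122 ± 21.1, 10.4 ± 4.63 and 18.1 ± 12.53. The ranges of *Ncs* and *Cplx2* overlapped in Neurog and in lacZ, although *Ncs* was higher within each library. *Bassoon-like* was at 40.2 ± 22.0, 1.38 ± 1.52 and 5.95 ± 3.28 CPM per kilobase, and *Syt7-rel* at 19.9 ± 4.71, 1.77 ± 0.315 and 4.11 ± 1.70. These last 2 overlapped in Neurog:WRPW and lacZ, and both overlapped *Ncs* in Neurog:WRPW.

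Under Neurog:WRPW the balance among the genes differed. *Ncs* dropped behind *Cplx2*, at 0.385 and 0.196 of its level per kilobase, whereas the ratio was 1.19 to 1.71 in the 4 other libraries. Of the summed level of the 5 genes per kilobase, *VAMP1/2/3* made up 84.7% and 93.1% in Neurog:WRPW, 47.2% and 55.6% in Neurog and 69.1% and 83.9% in lacZ. The share of *Ncs* was 3.51% and 0.888% in Neurog:WRPW, 27.5% and 20.8% in Neurog and 13.6% and 6.7% in lacZ. For both shares the libraries of the 3 conditions did not overlap, but narrowly for *VAMP1/2/3*, at 84.7% in Neurog:WRPW replicate 1 and 83.9% in lacZ replicate 2. Shares of 1 sum depend on each other, so they restate the levels above and were not tested. Duplicate reads were removed before counting, which lowers abundant transcripts such as *VAMP1/2/3* more than rare ones.

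Across the 6 libraries the log2 levels of the 5 genes moved together, with a Pearson r of 0.827 (*VAMP1/2/3* with *Bassoon-like*) to 0.989 (*Bassoon-like* with *Ncs*) over 10 pairs. These points share conditions and libraries, and the 5 genes were chosen with earlier results of these data known, so these r values are no independent support. Of the 12253 genes tested, 132 (*VAMP1/2/3*) to 271 (*Bassoon-like*) had an r over 0.95 with a given gene of the 5. The nearest pattern to *Cplx2* was that of KH.L9.6 (r = 0.999), whose LogFC in Neurog was only 0.32, since r ignores the size of a change. Next to it came *HPCAL4* (KH.C7.272), another gene of the calcium sensor family (r = 0.999). Nearest to *Bassoon-like* was *Rgs19/20* (KH.C1.314), which encodes an RGS protein (r = 0.997), then KH.L59.6 (r = 0.996). Nearest to *Ncs* were KH.L135.1, named in the study after *UNC79*, a subunit of the sodium leak channel complex (r = 0.998), and the G-protein gamma subunit gene *Gng* (KH.L170.96, r = 0.997). *Syt7-rel* was most like the receptor gene *Gpr22* (KH.L139.24, r = 0.998) and KH.C8.762 (r = 0.997), and *VAMP1/2/3* was most like KH.C8.353 (r = 0.998) and KH.C8.280 (r = 0.995).

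The same machinery has further parts, and 23 more genes of vesicle release and calcium sensing were listed by role from the names in the study's table of fold changes. The copy of that table used here holds only its genes with the highest LogFC in Neurog, so every listed gene lies above 0 there by choice, and a relative that did not rise could not be listed. In Neurog vs. lacZ, 16 of the 23 rose and 0 fell at the thresholds, against 4.36% and 1.83% of all genes tested, and 7 did not pass, with a median LogFC of 1.396. Since the list was drawn from the top of this same comparison, these counts, and those by role that follow, describe the listed genes and follow in part from how they were chosen. The 16 were 5 without Neurog replicate 1, 5 without lacZ replicate 2 and 11 without lacZ replicate 1. In Neurog:WRPW vs. lacZ, 0 of the 23 rose or fell at the thresholds in the quasi-likelihood fit, by the exact test or by DESeq2, where 0.318% of all genes tested rose and 1.19% fell in the quasi-likelihood fit, and 0 had an unadjusted p under 0.05 by any of these. Without lacZ replicate 2, 2 of the 23 fell. The median there was -0.31, against -0.02 over all genes and -1.23 over the 5 genes described. The 23 were drawn from Neurog vs. lacZ, which uses the same lacZ libraries, and the 5 were chosen with earlier results known. These counts and medians thus describe the chosen genes, and the difference between the 2 sets was not tested.

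**Figure D4:**
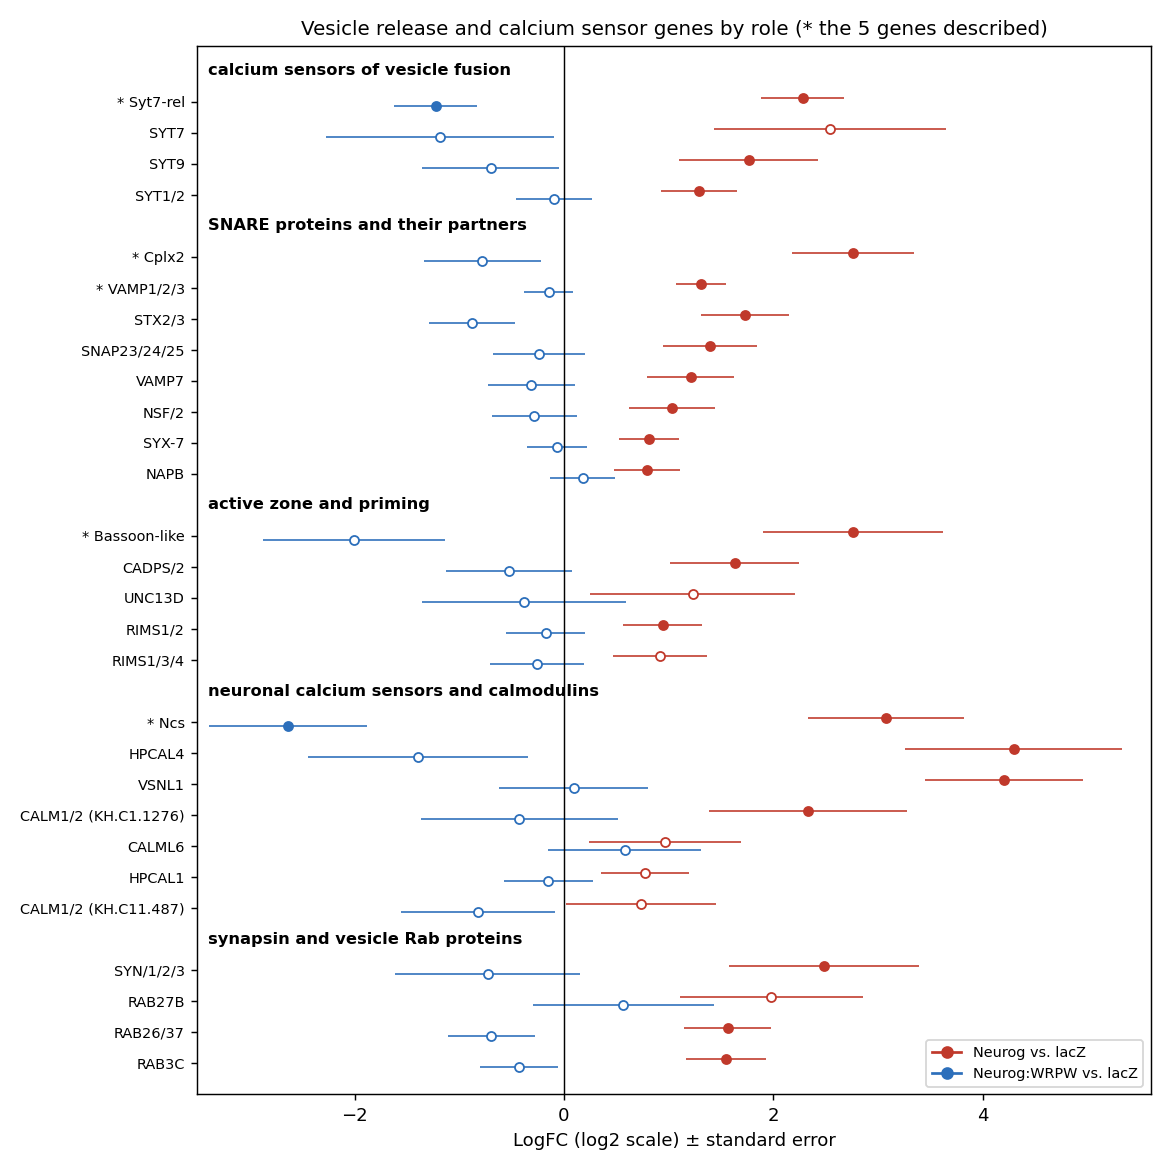
LogFC with its standard error in Neurog vs. lacZ (red) and Neurog:WRPW vs. lacZ (blue) for the 5 genes (asterisks) and 23 others, grouped by role. Filled points passed the thresholds. Blue points are filled only for *Ncs* and *Syt7-rel*, and all red points lie above 0 because the 23 genes were listed from a table of the highest values.

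Of the SNARE proteins and their partners, 6 of 6 listed genes rose in Neurog. *STX2/3* (KH.L108.15), a syntaxin of the target membrane, had a LogFC of 1.73 (standard error 0.42) in Neurog and -0.88 (standard error 0.41) in Neurog:WRPW. *SNAP23/24/25* (KH.S1271.1), named after the SNAP-25 family that forms the SNARE complex with syntaxin and VAMP, was at 1.396 (standard error 0.45) and -0.24 (standard error 0.44). The LogFC of the 6 genes in Neurog ran from 0.80 to 1.73, beside 1.31 for *VAMP1/2/3* and 2.758 for *Cplx2*.

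Among the other genes listed as calcium sensors of fusion, 2 of 3 rose. *SYT1/2* (KH.C2.101), the family that times fast release in vertebrates and flies, had a LogFC of 1.29 (standard error 0.37) in Neurog and -0.10 (standard error 0.36) in Neurog:WRPW. *SYT9* (KH.C9.478) was at 1.76 (standard error 0.67) and -0.70 (standard error 0.66). Another gene named after *SYT7* (KH.C2.734), mentioned here after its values were seen, was at 2.54 (standard error 1.106) and -1.18 (standard error 1.09). *Syt7-rel*, at 2.28 (standard error 0.40) and -1.23 (standard error 0.40), was the only gene of this role to pass in both comparisons. Its LogFCs lay close to those of *SYT7*, whose standard errors were larger, and the differences between genes were not tested.

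Of the active zone and priming genes, 2 of 4 listed rose in Neurog. *CADPS/2* (KH.C8.50), a factor that primes vesicles, had a LogFC of 1.63 (standard error 0.61) in Neurog and -0.53 (standard error 0.60) in Neurog:WRPW. *RIMS1/2* (KH.C2.765), an active zone scaffold that binds vesicle Rab proteins, was at 0.94 (standard error 0.38) and -0.17 (standard error 0.38). Of synapsin and the vesicle Rab proteins, 3 of 4 listed genes rose. *RAB3C* (KH.C8.400) was at 1.54 (standard error 0.38) in Neurog and -0.43 (standard error 0.38) in Neurog:WRPW, and *RAB26/37* (KH.C2.509) at 1.56 (standard error 0.42) and -0.69 (standard error 0.41).

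Of the other neuronal calcium sensors and calmodulins, 3 of 6 listed genes rose. *HPCAL4* (KH.C7.272) and *VSNL1* (KH.C7.343), EF-hand relatives of *Ncs*, had LogFCs in Neurog of 4.296 (standard error 1.04) and 4.20 (standard error 0.76), the largest of the list. *VSNL1* was at 16.98 and 20.3 CPM under Neurog, 1.69 and 0.334 CPM under Neurog:WRPW and 1.28 and 0.746 CPM under lacZ. In Neurog:WRPW vs. lacZ it had a LogFC of 0.09 (standard error 0.71), while *HPCAL4* was at -1.39 (standard error 1.05). *HPCAL4* was at 45.8 and 24.6 CPM under Neurog, 1.003 and 0.222 CPM under Neurog:WRPW and 3.22 and 0.395 CPM under lacZ. Neither gene passed the thresholds in Neurog:WRPW vs. lacZ, and for both genes the libraries of these conditions overlapped. With standard errors of this size, a fall of either gene cannot be told from no change. The part of the low control levels in this was not tested.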

How the data were processed

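The 6 libraries were sequenced from amplified cDNA of sorted cells. Reads were aligned by the authors (STAR 2.5.2b), and featureCounts, ignoring duplicates, assigned them to exons of the KyotoHoya (KH2013) gene models. The deposited values are raw counts per gene model and library. The length of each gene model, another column of the deposited table, is in bases. Neither the assembly version nor the strand setting is known (both not given in the sources used here), and reads of overlapping or near-identical genes may have been mixed. Library totals of 10315548 to 24499397 limit precision at low counts. The 5 genes were matched to no RefSeq entry.

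The filter kept genes with more than 1 CPM in 2 or more libraries. After TMM scaling, 1 fit held all 3 conditions in edgeR 4.0.16 (R 4.3.3), using two-sided quasi-likelihood tests and Benjamini-Hochberg adjustment over 12253 genes. CPM values use the TMM-scaled totals. A standard error is the LogFC divided by the square root of the F value. The prior count for log2 CPM was 2. The alternatives were DESeq2 1.42.0, the exact test, DESeq2 size factors, other filters, a replicate block, only the conditions compared and each library left out. The procedure was tested on simulated data.

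The 5 genes, the list by role and the tests were chosen with earlier results of these data known. Named beside the 5 genes are the 2 of each role with the smallest p in Neurog vs. lacZ, and the 2 genes of highest r with each of the 5. Of the genes that could be listed by role, 1 is not reported here.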

Additional observations from a re-analysis of the deposited data

How the results depend on the processing

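Over the 3 comparisons, 195 LogFCs of the 5 genes were computed under alternatives. Of these, 182 kept their direction and their side of the thresholds, 6 lost the call, 6 gained it and 1 changed sign, that of *Cplx2* in Neurog:WRPW vs. lacZ, at 0.20 without lacZ replicate 1 (-1.36 without lacZ replicate 2). The number of the 5 genes past the thresholds was 4 to 5 in Neurog vs. lacZ, 0 to 3 in Neurog:WRPW vs. lacZ and 5 in Neurog vs. Neurog:WRPW when 1 library was left out. With only the 2 conditions compared, 1 of the 5 fell in Neurog:WRPW, since *Syt7-rel* was at an unadjusted p of 0.0583 in edgeR. Genes past the thresholds numbered 758 in Neurog vs. lacZ (402 to 931 with a library left out, lowest without Neurog replicate 1 and 418 without lacZ replicate 2), 185 in Neurog:WRPW vs. lacZ (113 without lacZ replicate 1 to 1103 without Neurog:WRPW replicate 1) and 1296 in Neurog vs. Neurog:WRPW (845 without Neurog replicate 1 to 1925 without Neurog:WRPW replicate 1). At an adjusted p under 0.05, DESeq2 and the exact test each passed 4 of the 5 genes in Neurog vs. lacZ and 5 in Neurog vs. Neurog:WRPW, and the fit without a filter on low counts passed 1 (*Syt7-rel*) there. The sum of both LogFCs changed sign for *Bassoon-like* (-1.49 and -0.207) and *Ncs* (-0.862 and -0.699) without Neurog:WRPW replicate 1 and without lacZ replicate 2, over ranges of -1.49 to 2.20 and -0.862 to 2.36. The cause of these shifts was not tested.

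Replicates 1 and 2 occur in every condition, but no source calls them a batch. The difference between replicates 1 and 2 correlated across 7969 genes at 0.565 between Neurog and lacZ, 0.611 between Neurog:WRPW and lacZ and 0.537 between Neurog and Neurog:WRPW. With the replicate number as a block, 1409, 577 and 2135 genes passed the thresholds in the 3 comparisons, in the order given above. In that fit all 5 genes had an adjusted p under 0.05 in Neurog vs. lacZ (0.0122 to 0.0315) and 5 did in Neurog vs. Neurog:WRPW, while none did in Neurog:WRPW vs. lacZ. *Bassoon-like* fell there at the thresholds with the block (LogFC -2.22, standard error 0.41). The sum of both LogFCs of *Cplx2* passed an unadjusted p of 0.05 with the block (2.23, standard error 0.55). Of the 23 other genes listed by role, 2 fell and 4 had an unadjusted p under 0.05 in Neurog:WRPW vs. lacZ with the block in edgeR. The lowest libraries held 5 reads of *Bassoon-like* and 13 of *Ncs*.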
